A study of Mus musculus with 36 samples.

Results

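The genes described here are 40 mouse genes of the germline, of 24421 listed in the count tables, chosen by name for what their products do in germ cells. They fall into 15 genes of the piRNA pathway, 17 genes of meiosis and 8 other germ cell genes. Their RNA was measured in bulk cerebellum and hippocampus of the same 18 adult C57Bl/6 mice, 9 males and 9 females. All of the mice carried floxed Pogz. Control mice were Pogzfl/fl without Cre and kept 2 intact alleles, Pogz cKO+/- mice were NesCre/+; Pogzfl/+ and kept 1, and Pogz cKO-/- mice were NesCre/+; Pogzfl/fl and kept 0. Each genotype had 6 mice, 3 of each sex. The Nestin promoter drives the Cre in the nervous system, so cells of other origin in the dissected tissue keep Pogz, and the presence of Cre cannot be told apart from the deletion. The study excluded an outlier RNA sample that it does not name. The hippocampal library of Sample_1160, a cKO-/- female, is taken to be that sample here, so that 5 cKO-/- hippocampi and 6 cKO-/- cerebella enter the tests.

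Germ cells use a set of genes that most somatic cells keep silent. The piRNA pathway pairs small RNAs with PIWI proteins to silence transposons, and many of its other proteins carry tudor domains that bind methylated PIWI proteins in germ granules. In meiosis, cohesins with germline subunits and the proteins of the chromosome axis prepare homologous chromosomes, and the synaptonemal complex, with its transverse filaments and central element, holds them together. In somatic cells many germline promoters are kept off by DNA methylation and by a Polycomb complex that carries E2F6 and the MGA-MAX pair, which bind E2F-type sites and E-boxes. POGZ is a nuclear zinc finger protein that binds the HP1 proteins of heterochromatin.

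Totals lay between 17609321 and 45544188 counts on genes in the hippocampal libraries and between 21421850 and 32544929 in the cerebellar ones. Values below are CPM (read counts scaled to a common library size), and a fold change is per Pogz allele lost unless stated otherwise. Pogz itself fell by 0.28 on the log2 scale in the hippocampus and by 0.30 in the cerebellum, and every cKO-/- library was below every control in both tissues. Since reads were summed over whole genes, transcripts with and without the floxed exons were counted alike. The hippocampal control library of Sample_1129 stood apart. It held 1773 counts of Gabra6, the receptor subunit that marks cerebellar granule cells, where the next highest of the 18 hippocampal libraries held 44. The animals' numbers were not spread evenly, since 3 cKO+/- and 4 cKO-/- animals but 0 controls lie outside the range from Sample_1120 to Sample_1219, and values with a term for these animals are given where they change a call.

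Promoter windows in RefSeq (GRCm38.p6), from 250 bases before the start site to 50 after it, were found for 33 of the 40 genes. Meiob, Piwil2, Rnf17, Spo11, Tdrd6, Tex11 and Tex15 had none in the table. The E-box CACGTG, which reads the same on both strands, occurred in a window of 15 of the 33 genes, against 8.09% of all 27025 genes with a window. The E2F-type site TCCCGC, searched on both strands, occurred in 14 of the 33 (42.4%), against 22.0% of all genes. The members' windows are rich in CG dinucleotides, with a median of 19.0 against 8.0 over all genes. Among genes with at least 15 CG dinucleotides, the E-box occurred in 14 of 26 members (53.8%) and in 12.8% of all such genes, and the E2F-type site in 53.8% and 47.8%. A match of this kind is a description of the letters only. The windows of the 4 genes that passed the test in either tissue and have one are printed below, with the E-box and the E2F-type site in capitals, because they show how differently the sites are placed.
4930447C04Rik, chr12:72917716-72918015, minus strand: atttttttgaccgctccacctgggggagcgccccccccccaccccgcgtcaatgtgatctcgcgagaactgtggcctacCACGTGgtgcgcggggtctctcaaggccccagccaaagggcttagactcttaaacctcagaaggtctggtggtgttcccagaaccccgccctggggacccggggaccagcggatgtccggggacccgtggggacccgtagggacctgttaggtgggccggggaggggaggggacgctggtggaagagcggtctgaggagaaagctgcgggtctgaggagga
Ddx4, chr13:112652261-112652560, minus strand: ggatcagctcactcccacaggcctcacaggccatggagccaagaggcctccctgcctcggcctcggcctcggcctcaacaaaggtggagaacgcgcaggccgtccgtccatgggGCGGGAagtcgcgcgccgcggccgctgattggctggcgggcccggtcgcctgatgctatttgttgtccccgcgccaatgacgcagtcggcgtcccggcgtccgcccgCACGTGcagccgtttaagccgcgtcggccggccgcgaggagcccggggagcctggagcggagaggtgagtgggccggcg
Sycp1, chr3:102936051-102936350, minus strand: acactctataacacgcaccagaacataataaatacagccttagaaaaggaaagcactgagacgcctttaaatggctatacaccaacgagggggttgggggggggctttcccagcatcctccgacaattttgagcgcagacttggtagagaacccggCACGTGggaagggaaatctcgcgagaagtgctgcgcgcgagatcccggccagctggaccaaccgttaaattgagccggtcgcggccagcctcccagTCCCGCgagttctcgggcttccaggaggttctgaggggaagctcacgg
Syce2, chr8:84871861-84872160, plus strand: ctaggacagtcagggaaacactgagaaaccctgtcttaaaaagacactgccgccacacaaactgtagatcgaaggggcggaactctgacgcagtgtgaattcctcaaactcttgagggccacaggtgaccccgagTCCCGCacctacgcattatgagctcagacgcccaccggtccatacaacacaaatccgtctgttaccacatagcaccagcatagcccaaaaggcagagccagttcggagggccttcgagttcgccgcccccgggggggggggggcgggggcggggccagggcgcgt
With the start site as position 0, the E-box begins at -171 in 4930447C04Rik, at -29 in Ddx4 and at -94 in Sycp1. The E2F-type site begins at -136 in Ddx4, on the opposite strand, at 2 in Sycp1 and at -115 in Syce2. Syce2 has no E-box in this window and has 1 in its other window, chr8:84872008-84872307, which overlaps the one printed.

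In control mice the germline genes were not uniformly silent. To compare genes with each other, counts were also divided by transcript length (RPKM, computed here from the CPM and the gene lengths in the tables). In the control hippocampus the highest members were Tdrkh at 12.7 RPKM and Tdrd7 at 10.7, both tudor domain genes that somatic tissues also express. Sycp3, a protein of the chromosome axis, followed at 4.69 RPKM, then 4930447C04Rik at 4.06 and the testis bromodomain gene Brdt at 3.82. 4930447C04Rik, also called Six6os1, encodes a central element protein of the synaptonemal complex. In the control cerebellum Tdrkh was again highest at 17.1 RPKM, followed by the meiotic cohesin subunit Rec8 at 16.4, Sycp3 at 10.5, Tdrd7 at 9.97 and Sycp1, the transverse filament protein, at 7.68. Sycp3 exons overlap those of Chpt1 on the other strand by 160 bases, and whether strand was used in counting is not stated, so its level may hold reads of that gene.

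At the other end, 6 members had at most 3 counts in every library of a tissue. These were Asz1, Hormad1, Stra8, Tex101 and Tex19.1 in both tissues, with Meiob in the hippocampus and Hormad2 in the cerebellum. A count of 3 is worth between 0.0649 and 0.172 CPM in the hippocampus and between 0.0919 and 0.140 CPM in the cerebellum. Stra8 starts the meiotic programme and Hormad1 and Hormad2 mark unsynapsed chromosome axes. Mean levels over all libraries reached 1 CPM for 17 of 40 members in the hippocampus and 14 in the cerebellum.

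Between the tissues of control mice, 12 of the 16 members tested differed (quasi-likelihood F-test in edgeR, adjusted over all genes), 8 higher in the hippocampus and 4 higher in the cerebellum. Of all 14224 genes tested, 71.9% differed, so the members' share of 75% is near the background. 4930447C04Rik was at 7.76 ± 1.32 CPM (SD, n = 6) in the hippocampus and 0.505 ± 0.210 (SD, n = 6) in the cerebellum, a difference of 4.04 ± 0.22 (SE) on the log2 scale (edgeR adjusted p = 1.55e-09). Dazl, an RNA-binding protein of germ cells, was at 5.36 ± 0.347 and 0.419 ± 0.156 CPM (SD, n = 6 each), a difference of 3.75 ± 0.19 (edgeR adjusted p = 7.69e-10). Rec8 went the other way, at 1.61 ± 0.893 CPM in the hippocampus and 33.7 ± 11.1 in the cerebellum (SD, n = 6 each), a difference of -4.27 ± 0.39 (edgeR adjusted p = 3.01e-07). Tex15, a germ cell gene required for transposon silencing in the testis, was 2.95 ± 0.40 higher on the log2 scale in the hippocampus (edgeR adjusted p = 1.49e-05).

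**Figure D1:**
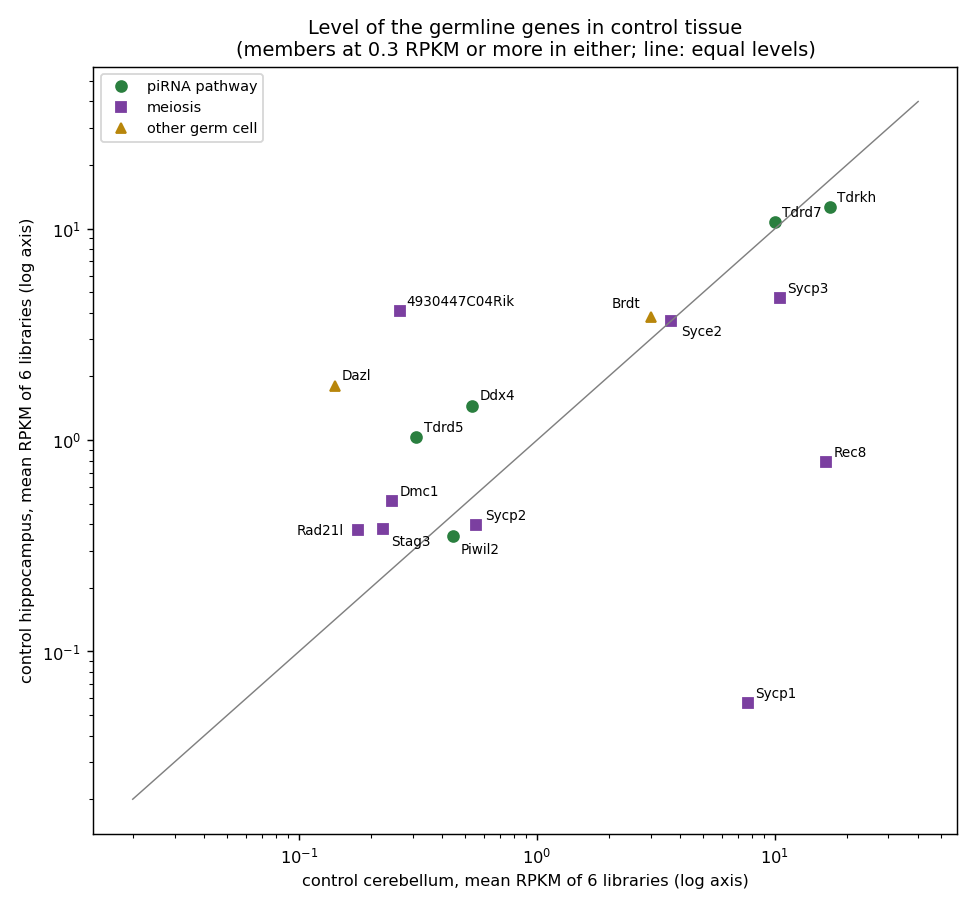
Mean level per transcript length (RPKM, log axes) of the 16 members that reach 0.3 RPKM in either control tissue, with the cerebellum on the horizontal and the hippocampus on the vertical axis. Symbols mark the classes and the line marks equal levels; 4930447C04Rik and Dazl lie above the line, Rec8 and Sycp1 below it.

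Sycp1 was the clearest gene of one tissue. In the 6 control cerebella it had 627 to 833 counts. In the hippocampus 16 of 18 libraries had 0 counts, 1 had 1 count, and the control library of Sample_1129 had 42. That is the library with 1773 counts of Gabra6, and the control cerebella held 24862 to 30276 counts of Gabra6. Without it the other 5 control hippocampi were all at 0.

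The first question of the design is how these genes change with the number of intact Pogz alleles. In the hippocampus Rnf17 and 4930447C04Rik were called as higher in the fit on the number of alleles lost, and no member was called as lower. Rnf17, a tudor domain protein of male germ cells, was 6.24 times as high in cKO-/- as in control mice, and 4930447C04Rik was 3.81 times as high. Of the 40 members, 18 passed the filter on low counts and 2 of these 18 were called (11.1%), where 4.44% of all 14339 genes tested were called, 2.09% as higher and 2.35% as lower. By class, 1 of 8 piRNA pathway genes, 1 of 7 meiosis genes and 0 of 3 other germ cell genes were called. Since Rnf17 passed the filter only through mutant libraries, in which it is high, the members' share depends in part on the filter.

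Rnf17 (chromosome 14, 56402697 to 56525031, plus strand, GRCm38) was at 0.432, 0.660 and 0.943 CPM in the lowest, median and highest control hippocampus. The cKO+/- hippocampi lay at 0.841, 1.38 and 1.89 CPM. The 5 cKO-/- hippocampi were at 2.52, 3.16, 3.53, 5.61 and 5.74 CPM. Every cKO-/- library was above every control and every cKO+/- library, while cKO+/- and control libraries overlapped. The increase was 1.32 ± 0.13 (SE) on the log2 scale per allele (edgeR adjusted p = 7.57e-06). The full separation of cKO-/- from control fixes the 2-sided exact permutation test at its smallest p, here p = 0.00433, so that p adds nothing to it. Sample_1160, outside the fit, was at 2.62 CPM. Control hippocampi held 14 to 41 counts of Rnf17, all under 1 CPM, so the gene passed the filter through mutant libraries alone.

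4930447C04Rik (chromosome 12, 72881109 to 72917765, minus strand) was at 6.33, 7.61 and 9.64 CPM in the lowest, median and highest control hippocampus. The cKO+/- hippocampi lay at 10.3, 12.9 and 14.7 CPM and the 5 cKO-/- hippocampi at 25.7, 27.8, 27.9, 28.9 and 37.5 CPM. None of the 3 genotypes overlapped another. The increase was 0.96 ± 0.069 per allele (edgeR adjusted p = 1.29e-07), with 229 to 346 counts in the controls and 484 to 1043 in the cKO-/- libraries. With all 18 hippocampal libraries the same pair of genes was called, at 1.28 for Rnf17 and 0.98 for 4930447C04Rik (edgeR adjusted p = 1.73e-05 and 1.63e-07), against 1.72% of all genes, 0.809% as higher and 0.907% as lower.

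**Figure D2:**
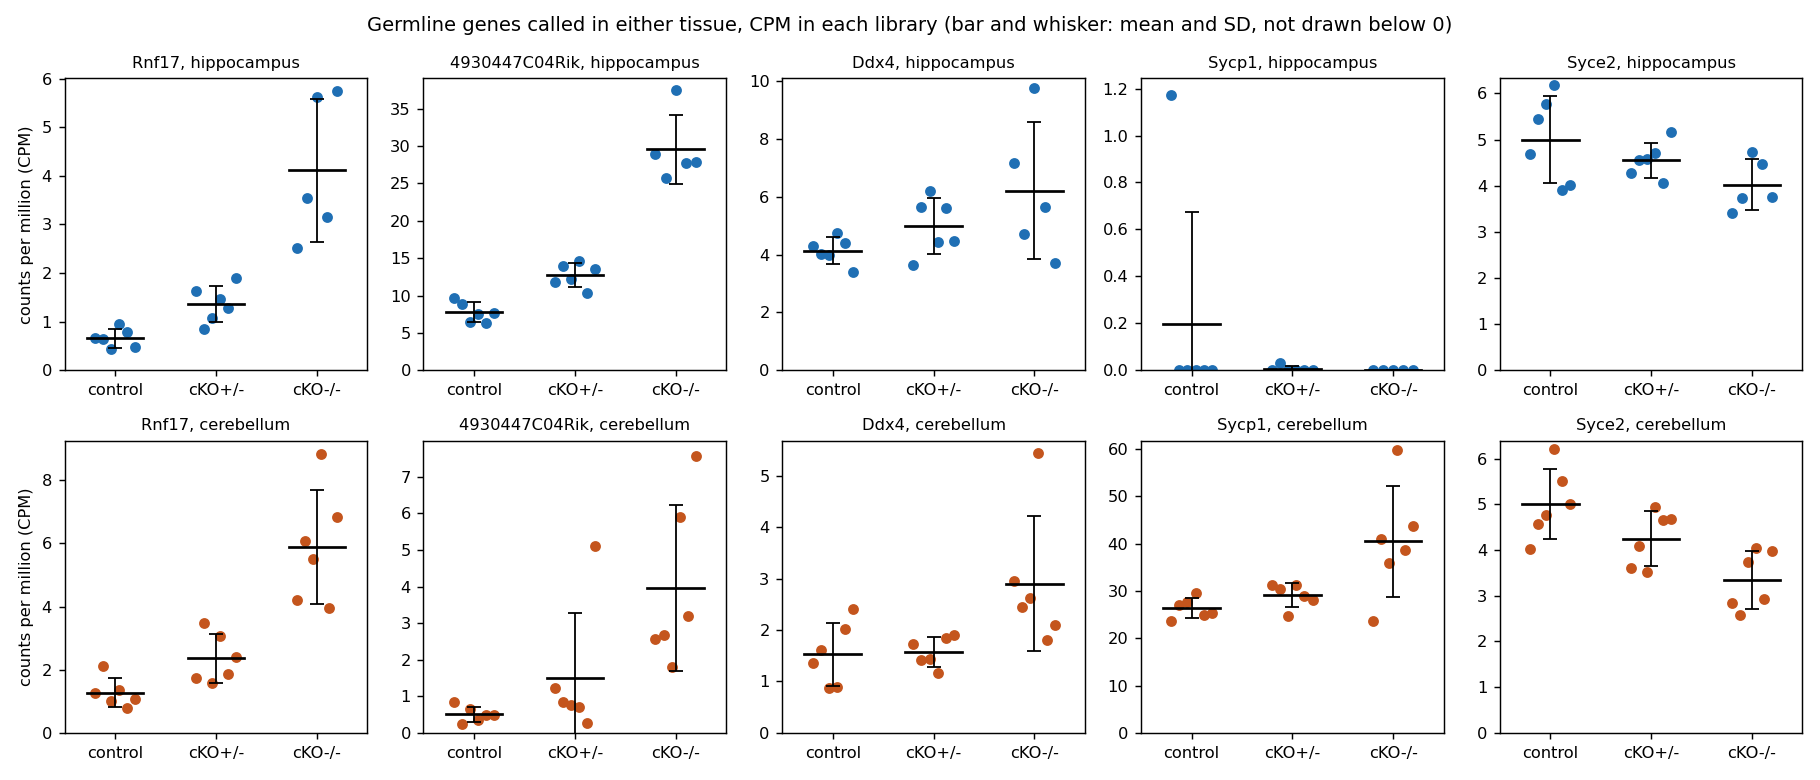
CPM in each library of the 5 genes that passed the test in either tissue, with the hippocampus in the upper row and the cerebellum in the lower, by genotype; the 17 hippocampal libraries of the fit are shown. Lines and whiskers are means and SDs. The cKO-/- libraries of Rnf17 and 4930447C04Rik lie above all controls in both tissues, and hippocampal Sycp1 is at or near 0 but for 1 control library.

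The other 16 members tested in the hippocampus had log2 fold changes between -0.43 for Rec8 and 0.41 for Tex15, and their edgeR adjusted p ranged from 0.0714 to 0.894. The smallest of these adjusted p was that of Brdt, whose control hippocampi averaged 19.2 ± 1.06 CPM (SD, n = 6) against 21.9 ± 1.78 for cKO-/- (SD, n = 5), a log2 change of 0.09 ± 0.028 per allele. Ddx4, the germline RNA helicase known as Vasa, was at 4.14 ± 0.459 and 6.20 ± 2.37 CPM, a change of 0.29 ± 0.099 per allele (edgeR adjusted p = 0.112). Piwil2, the PIWI protein MILI, was at 1.73 ± 0.227 CPM in controls and 1.16 ± 0.261 in cKO-/- mice. All 5 of its cKO-/- libraries were below all 6 controls, while the test over all genes did not call it (-0.26 ± 0.096 per allele, edgeR adjusted p = 0.142). A full separation always gives the smallest p of the 2-sided exact permutation test, here p = 0.00433, so that p adds nothing to it. Tdrd5, Tdrd1 and Dmc1 had values of -0.10, -0.11 and -0.04, and Stag3, a meiotic cohesin subunit, and Sycp3 had 0.22 and 0.14 (edgeR adjusted p from 0.222 to 0.894 for these 5 genes). Tdrkh, Tdrd7, Dazl, Sycp2 and Tdrd6 lay between 0.03 and 0.07 per allele on the log2 scale. The median change was 0.07 over the 18 members that passed the filter and 0.00 over all genes tested, but Rnf17 passed the filter through its increase.

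In the cerebellum 4 members rose and 1 fell. Rnf17 and 4930447C04Rik rose again, Ddx4 and Sycp1 rose by less, and Syce2, another central element protein of the synaptonemal complex, fell. Of the 40 members 16 passed the filter and 5 were called (31.2%), where 13.7% of all 14027 genes tested were called, 7.11% as higher and 6.55% as lower. The called members were 2 of 7 piRNA pathway genes, 3 of 7 meiosis genes and 0 of 2 other germ cell genes. Since 4930447C04Rik passed the filter only through mutant libraries, in which it is high, the members' share depends in part on the filter.

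Rnf17 was at 0.80, 1.16 and 2.13 CPM in the lowest, median and highest control cerebellum. The cKO+/- cerebella lay at 1.59, 2.14 and 3.48 CPM and the cKO-/- cerebella at 3.94, 5.78 and 8.84. The cKO-/- libraries were above all others, and the controls overlapped the cKO+/- libraries. The increase was 1.11 ± 0.13 per allele (edgeR adjusted p = 1.71e-05), and the level was 4.65 times as high in cKO-/- as in control mice. With 6 against 6, full separation fixes the 2-sided exact permutation test at its smallest p, here p = 0.00216, so that p adds nothing to it.

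4930447C04Rik, low in the cerebellum, had 7 to 22 counts in controls and 54 to 223 in cKO-/- mice. In CPM the controls lay at 0.241, 0.481 and 0.834, the cKO+/- libraries at 0.28, 0.794 and 5.11, and the cKO-/- libraries at 1.80, 2.94 and 7.58 (lowest, median, highest). All cKO-/- libraries were above all controls, and 1 cKO+/- library, Sample_1433, was far above its group with 167 counts. The increase was 1.48 ± 0.28 per allele (edgeR adjusted p = 0.0022). Without the cerebella of Sample_1385 and Sample_1433, the highest of cKO-/- and of cKO+/-, it was 1.38 ± 0.20 (edgeR adjusted p = 0.000324). The summed level of 12 hippocampal neuron markers in these libraries was 413.6 CPM in Sample_1385 and 361.2 in Sample_1433, and the control cerebella spanned 389.5 to 463 CPM. Its control cerebella were all under 1 CPM, so it passed the filter through mutant libraries.

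Ddx4 (chromosome 13, 112598333 to 112652310, minus strand) was at 0.868, 1.49 and 2.41 CPM in the lowest, median and highest control cerebellum. The cKO+/- libraries lay at 1.16, 1.58 and 1.90 CPM and the cKO-/- libraries at 1.80, 2.54 and 5.44. The groups overlapped, and the highest cKO-/- library was Sample_1371. The increase was 0.47 ± 0.10 per allele (edgeR adjusted p = 0.00697), and without Sample_1371 it was 0.37 (edgeR adjusted p = 0.0212).

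Sycp1 (chromosome 3, 102818499 to 102936100, minus strand) was at 23.8, 26.2 and 29.5 CPM in the lowest, median and highest control cerebellum. The cKO+/- libraries lay at 24.7, 29.8 and 31.3 CPM and the cKO-/- libraries at 23.7, 39.8 and 59.9. Of the 6 cKO-/- libraries, that of Sample_936 was the lowest of all 18 and the other 5 were above every control. The increase was 0.31 ± 0.073 per allele (edgeR adjusted p = 0.0106). The cerebellum of Sample_936 also held the second lowest sum of the 12 cerebellar neuron markers, 7857 CPM, where the control cerebella held 9270 to 11480. That sum was 11000 CPM in Sample_1371, the highest for Sycp1, within the range of the controls. Single markers of the list lay outside it. Gabra6 was at 649 CPM in Sample_1371 and at 498 in Sample_1385, the next highest for Sycp1, where control cerebella held 910 to 1040. Pcp2 was at 421 and 474 CPM in these libraries, where control cerebella held 285 to 451. The part of marker levels in the result was not tested.

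Syce2 (chromosome 8, 84872111 to 84887446, plus strand) was at 4.02, 4.89 and 6.20 CPM in the lowest, median and highest control. The cKO+/- libraries lay at 3.51, 4.38 and 4.95 CPM and the cKO-/- libraries at 2.59, 3.33 and 4.05. It fell by 0.29 ± 0.072 per allele (edgeR adjusted p = 0.0137), and the highest cKO-/- library overlapped the lowest control. Gcdh, on the other strand, overlaps its span with no shared exon, and it fell as well (-0.14 ± 0.037, edgeR adjusted p = 0.0194), as did the next gene Farsa (-0.13 ± 0.039, edgeR adjusted p = 0.0391).

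With a term for the animals outside the range of numbers, 2 cerebellar members were called. They were Rnf17 at 1.09 (edgeR adjusted p = 0.000215) and 4930447C04Rik at 0.99 (edgeR adjusted p = 0.0497). Ddx4 was then at 0.48 (edgeR adjusted p = 0.0629), Sycp1 at 0.29 (edgeR adjusted p = 0.115) and Syce2 at -0.29 (edgeR adjusted p = 0.108), so their calls were lost while the values of these 3 genes hardly moved. Both hippocampal calls were kept under the same term.

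**Figure D3:**
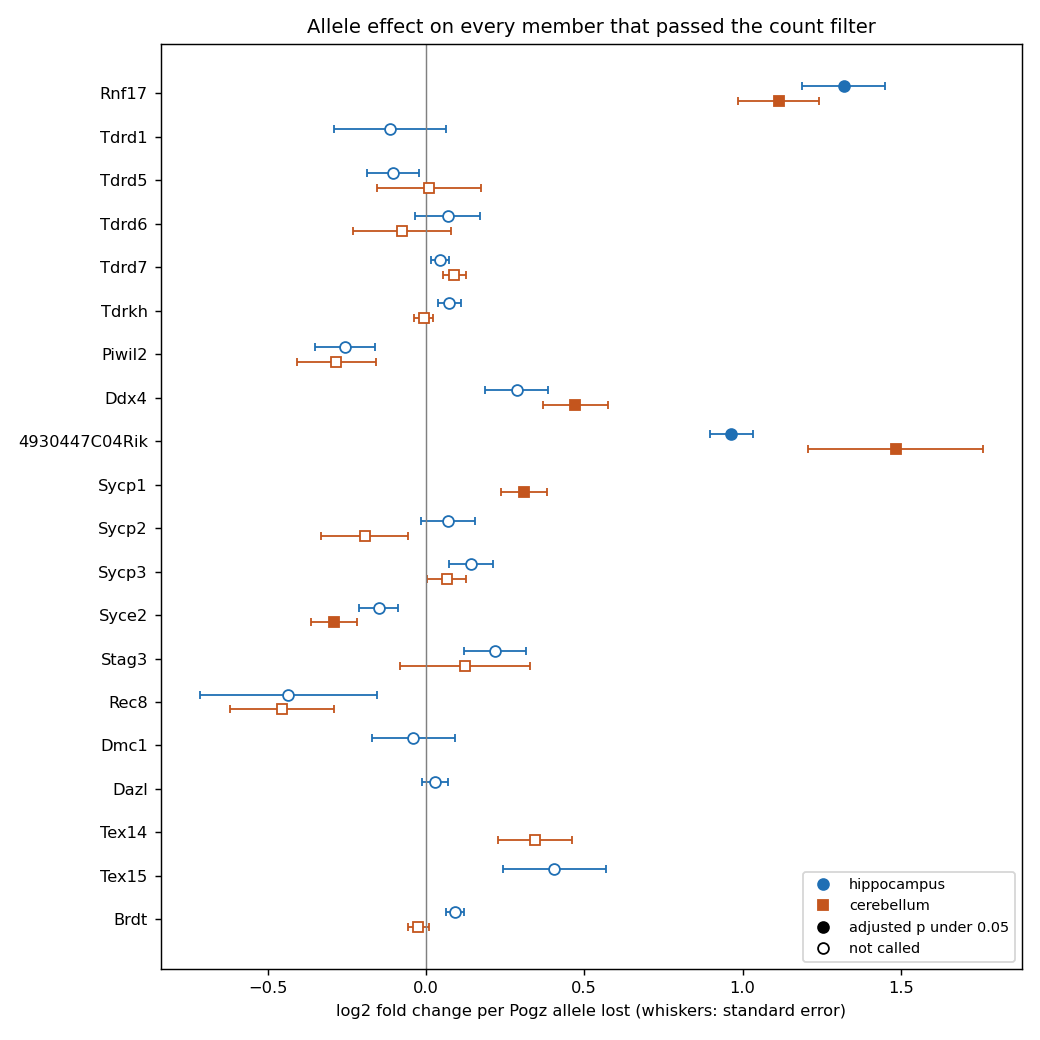
Log2 fold change per Pogz allele lost, with its standard error, for each member that passed the count filter, in the hippocampus (circles) and the cerebellum (squares). Filled symbols passed an adjusted p of 0.05; Rnf17 and 4930447C04Rik lie at 0.96 or above in both tissues, and the other members lie between -0.45 and 0.47.

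Rec8 was the member with the largest decrease that was not called. Its cerebellar levels were 33.7 ± 11.1 CPM in controls, 28.9 ± 11 for cKO+/- and 18 ± 6.75 for cKO-/- (SD, n = 6 each), a log2 change of -0.45 ± 0.16 per allele (edgeR adjusted p = 0.0682). The libraries spanned 615 to 1548 counts for controls, 344 to 1099 for cKO+/- and 162 to 578 for cKO-/-. Tex14, a protein of the bridges between germ cells, was at 0.744 ± 0.237 and 1.22 ± 0.416 CPM in control and cKO-/- cerebella (SD, n = 6 each), a change of 0.34 ± 0.12 (edgeR adjusted p = 0.0540). Tdrd7, Tdrkh, Sycp3 and Brdt, the other members with a mean of at least 10 CPM, had values between -0.02 and 0.09 per allele. Of the rest, Sycp2 had -0.19, Piwil2 -0.28, Stag3 0.12, Tdrd6 -0.07 and Tdrd5 0.01 (edgeR adjusted p from 0.13 to 0.978).

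The step of a single allele was asked with genotype as a factor. In the hippocampus 4930447C04Rik was the only member of the 18 tested that differed between cKO+/- and control mice, by 0.72 ± 0.12 (edgeR adjusted p = 0.0400), where 0.0349% of all genes, 5 in number, did. Between cKO-/- and cKO+/- hippocampi 2 members differed, against 0.718% of all genes: Rnf17 by 1.59 ± 0.25 and 4930447C04Rik by 1.22 ± 0.12 (edgeR adjusted p = 0.00434 and 4.43e-05). In the cerebellum no member of the 16 tested differed between cKO+/- and control mice, where edgeR called 0.342% of all genes and 3 of the 16 members had an unadjusted p under 0.05, against 11.6% of all genes. The values of Rnf17 and 4930447C04Rik for that step were 0.89 ± 0.27 and 1.53 ± 0.60 (edgeR adjusted p = 0.242 and 0.377). Between cKO-/- and cKO+/- cerebella Rnf17 differed, by 1.32 ± 0.25 (edgeR adjusted p = 0.0203), against 0.413% of all genes. Against control, cKO-/- mice differed in the 2 members of the allele effect in the hippocampus (4.87% of all genes, 2.29% as higher) and in the 5 in the cerebellum (12.7%, of which 6.83% as higher and 5.86% as lower).

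Several members below the filter on low counts rose as well. Without the filter, all 40 members could be fitted in the hippocampus and 38 in the cerebellum, since Tex101 and Tex19.1 had no cerebellar count. The test then called 4 members in the hippocampus, all higher, against 3.23% of all 21046 genes fitted (1.67% higher, 1.55% lower). In the cerebellum it called 8, 7 of them higher, against 9.27% of all 20443 genes (4.88% higher, 4.39% lower). The members added were Tex11 and Slc25a31 in the hippocampus and Tex15, Slc25a31 and Syce1 in the cerebellum.

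Tex15 (chromosome 8, 33570544 to 33585585) had 5 to 10 counts in control, 6 to 22 in cKO+/- and 15 to 44 in cKO-/- cerebella, or 0.263 ± 0.0582, 0.458 ± 0.167 and 1.27 ± 0.423 CPM (SD, n = 6 each). All cKO-/- libraries were above all controls, and the change was 1.13 ± 0.14 per allele (edgeR adjusted p = 1.97e-05, no filter). Such a separation always gives the smallest p of the 2-sided exact permutation test, here p = 0.00216, so that p adds nothing to it. Sample_1160, outside the hippocampal fit, held Tex15 at 1.26 CPM, below every control hippocampus (lowest 1.28). The hippocampal cKO-/- libraries of the fit, at 2.63 to 4.56 CPM, were above 5 of the 6 controls. The exception was Sample_1172 at 4.97 CPM, with 216 counts where the other controls had 46 to 60. Leaving out that library gave a hippocampal change of 0.64 per allele (edgeR adjusted p = 0.00218), against 0.41 with it (edgeR adjusted p = 0.171).

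Tex11, an X-linked gene of meiotic recombination, had 5 to 16 counts in control hippocampi and 12 to 25 in cKO-/- ones, or 0.288 ± 0.123 (SD, n = 6) and 0.704 ± 0.0761 CPM (SD, n = 5). The 5 cKO-/- libraries lay above all controls and above all cKO+/- libraries, and the change was 0.66 ± 0.14 per allele (edgeR adjusted p = 0.0104, no filter). In the cerebellum its levels were 0.181 ± 0.0795 and 0.278 ± 0.152 CPM, and the groups overlapped. Slc25a31, the ADP/ATP carrier of the male germline, had 0 to 5 counts in control cerebella and 4 to 39 in cKO-/- ones, a change of 1.87 ± 0.39 (edgeR adjusted p = 0.00479, no filter). In the hippocampus it had 1 to 4 counts in controls and 0 to 29 in cKO-/- mice, a change of 1.45 ± 0.34 (edgeR adjusted p = 0.0208, no filter). Syce1, the third central element gene among the members, had 0 to 14 counts in control cerebella and 3 to 27 in cKO-/- ones, a change of 1.12 ± 0.32 (edgeR adjusted p = 0.0317, no filter).

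Groups were also compared without a model. In the hippocampus all cKO-/- libraries were above all controls for 3 members (Rnf17, 4930447C04Rik and Tex11) and below them for 1 (Piwil2). Among all 21089 genes with a count these shares were 1.36% and 1.63%. In the cerebellum they were above for 3 members (Rnf17, 4930447C04Rik and Tex15) and below for 0, against 2.14% and 1.43% of all 20443 genes with a count. Asz1, Mael, Hormad1, Stra8, Tex101, Tex19.1, Piwil1, Piwil4, Mov10l1, Tdrd9, Tdrd12, Smc1b, Spo11, Meiob, Hormad2, Rad21l and Taf7l overlapped between these genotypes in both tissues, with means under 1 CPM over the libraries of either tissue.

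**Figure D4:**
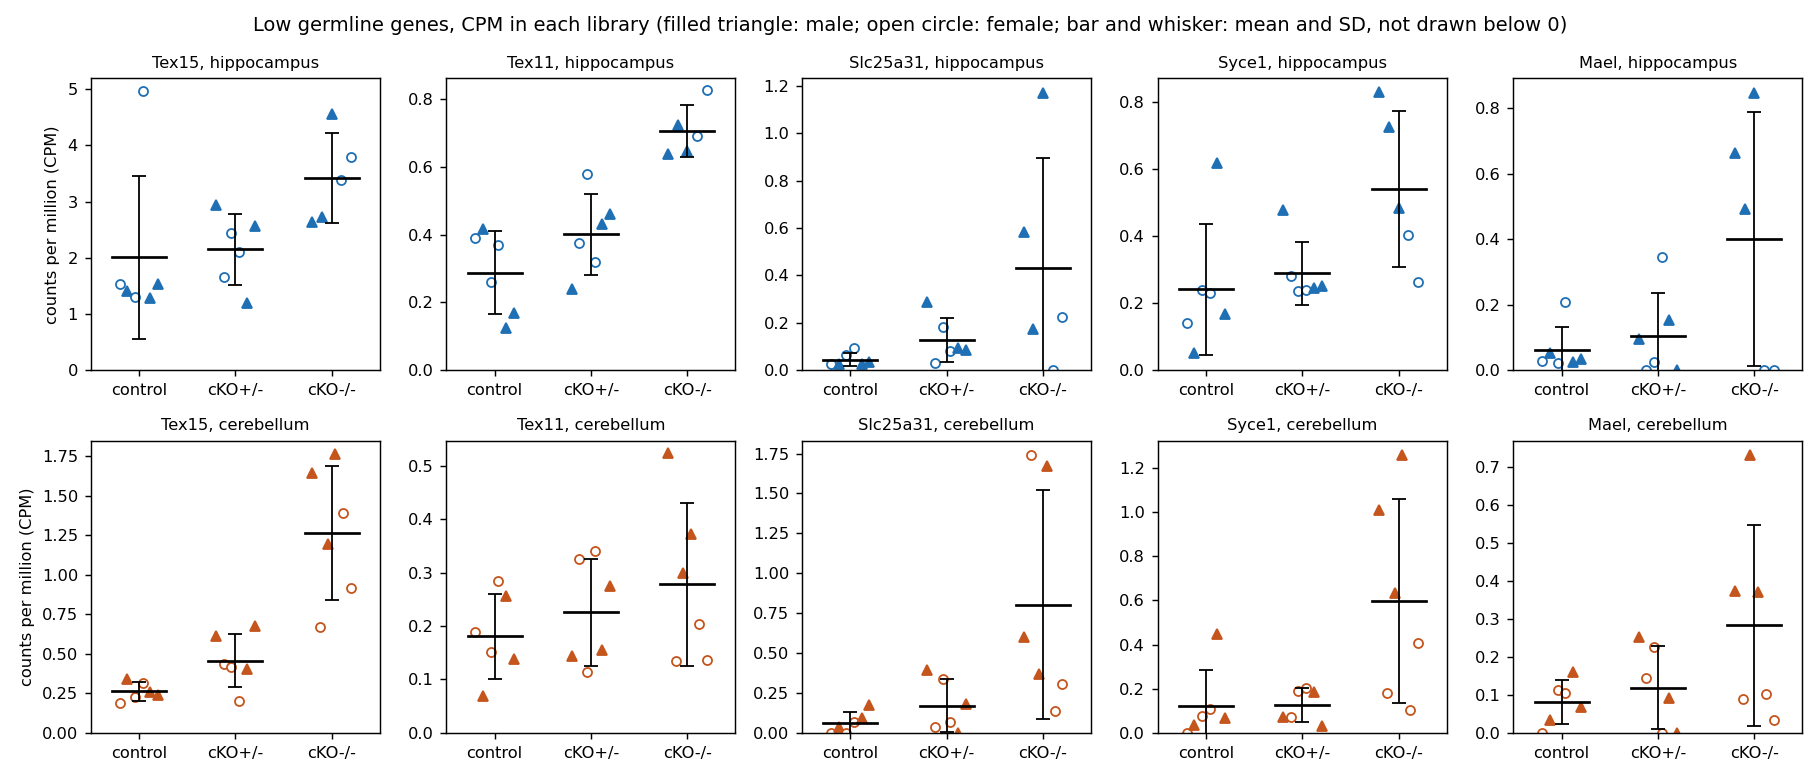
CPM in each library of 5 low members by genotype, with the hippocampus (17 libraries) in the upper and the cerebellum (18 libraries) in the lower row; triangles are males, open circles are females, and lines and whiskers are means and SDs. All cKO-/- cerebella lie above all controls for Tex15, and all cKO-/- hippocampi for Tex11; the highest cKO-/- values of Mael are those of males in both tissues. The 5 genes were chosen after their values were seen.

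Whether the allele effect differs between the tissues was tested as an interaction. Of the 20 members tested 1 was called, Sycp1, against 1.63% of all 14870 genes (1.39% with a larger value in the cerebellum). Without the filter 0 members were called (0.962% of all genes, 0.766% larger in the cerebellum). Its term of 4.08 ± 1.07 (edgeR adjusted p = 0.0475) rests on the 42 hippocampal counts of control Sample_1129, since no other hippocampal library had more than 1. Without that library the term was 0.17 ± 2.04 (edgeR adjusted p = 0.983). Each animal gave both tissues, and with the animal as a block Sycp1 was no longer called (edgeR adjusted p = 0.214), while Tex15 was, with a larger increase in the cerebellum by 0.72 (edgeR adjusted p = 0.0160), against 2.38% of all genes. Without the block the Tex15 term was 0.76 ± 0.22 (edgeR adjusted p = 0.0703). The terms of Rnf17 and 4930447C04Rik were -0.19 ± 0.19 and 0.53 ± 0.28 (edgeR adjusted p = 0.718 and 0.392). A call of Ddx4 or Syce2 in the cerebellum alone is thus not shown to be a difference between tissues (0.20 ± 0.15 and -0.13 ± 0.096, edgeR adjusted p = 0.585 and 0.586).

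Many of the members belong to the male germline, so the allele effect was compared between the sexes. With edgeR 0 of 18 hippocampal and 0 of 16 cerebellar members had a sex difference of the allele effect, and neither did any other gene (0% in both tissues); DESeq2 also called 0. At an unadjusted p under 0.05 there were 1 hippocampal and 0 cerebellar members, where 5.37% and 3.97% of all genes had one. The sex term of Rnf17 was -0.07 ± 0.27 in the hippocampus and 0.02 ± 0.27 in the cerebellum (edgeR adjusted p = 0.957 and 0.991). In cKO-/- hippocampi the mean level of Rnf17 was 3.89 ± 1.58 CPM in the 3 males and 4.45 ± 1.82 in the 2 females (SD).

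Of 13 other piRNA pathway genes 9 were tested in each tissue and 0 were called by edgeR, with 2 in the hippocampus and 6 in the cerebellum at an unadjusted p under 0.05, where 20.1% and 30.2% of all genes lay. Of 28 other meiosis genes, 1 of 10 tested rose in the hippocampus, and 1 rose and 1 fell of 9 in the cerebellum. Mei4, which acts in the breakage of meiotic DNA, rose in both tissues, by 0.35 ± 0.088 in the hippocampus and 0.34 ± 0.096 in the cerebellum (edgeR adjusted p = 0.0287 and 0.0279). In the hippocampus Mei4 was at 0.823 ± 0.110 CPM in control, 1.15 ± 0.155 in cKO+/- and 1.34 ± 0.337 in cKO-/- mice (SD, n = 6, 6 and 5). Its mean in controls was under 1 CPM, so it may have passed the hippocampal filter through mutant libraries, in which it is high. Msh5, a crossover protein of meiosis, fell in the cerebellum by 0.53 ± 0.10, with means of 5.52 ± 1.19 CPM for control and 2.68 ± 0.884 for cKO-/- (SD, n = 6 each, edgeR adjusted p = 0.00319). Of 28 other germ cell genes 7 and 6 were tested, and those called, Zbtb16 in both tissues and Ybx2 and Dazap1 in the cerebellum, all fell. Of all genes tested, 2.09% were called as higher and 2.35% as lower in the hippocampus. In the cerebellum these shares were 7.11% and 6.55%.

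Of 20 somatic counterparts, the mitotic or somatic relatives of the members, Rad21 rose by 0.10 ± 0.027 in the hippocampus (edgeR adjusted p = 0.0449). In the cerebellum Elavl1, an RNA-binding protein, fell by 0.09 ± 0.029 (edgeR adjusted p = 0.0428). Of 22 repressors of germline genes 0 of 22 tested were called in the hippocampus by edgeR, with 3 at an unadjusted p under 0.05 against 20.1% of all genes. In the cerebellum, where 13.7% of all genes were called, Ring1, a Polycomb ubiquitin ligase, fell by 0.18 ± 0.044 (edgeR adjusted p = 0.0129), and the other 20 repressors tested were not called.

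Of the genes next to Rnf17, 4930447C04Rik, Ddx4 and Sycp1, none that was tested was called as higher. Cenpj lies 1730 bases from Rnf17 and had a log2 fold change of 0.04 ± 0.062 in the hippocampus and -0.03 ± 0.054 in the cerebellum (edgeR adjusted p = 0.767 in both). Ppm1a, 86169 bases from 4930447C04Rik, had 0.03 ± 0.023 and 0.05 ± 0.033 (edgeR adjusted p = 0.460 and 0.303). Six6 on its other side and Atp12a beside Rnf17 were at or near 0 CPM. Slc38a9, 8456 bases from Ddx4, had -0.07 ± 0.032 in the hippocampus and -0.14 ± 0.048 in the cerebellum (edgeR adjusted p = 0.231 and 0.0637). Il31ra, 17671 bases from Ddx4 on its other side, was below the filter. Its means for control and cKO-/- were 0.126 ± 0.0624 and 0.359 ± 0.290 CPM in the hippocampus (SD, n = 6 and 5) and 0.226 ± 0.0844 and 0.665 ± 0.254 in the cerebellum (SD, n = 6 each), and the groups overlapped in both. Tshb beside Sycp1 fell in the cerebellum by 0.49 ± 0.14 (edgeR adjusted p = 0.0279). Sycp1, Tdrkh, Hormad1 and Slc25a31 lie on chromosome 3, as does Pogz (94837567 to 94883567), at 7.93, 0.406, 0.676 and 54.1 Mb from it. The part of that position in their values was not tested.

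Markers of other cells moved with genotype in both tissues. In the cerebellum 6 of 8 markers of meninges and fibroblasts rose, and the list summed to 220.5 to 300.1 CPM in controls and 296.3 to 582.2 in cKO-/- mice. Of 6 astrocyte markers 4 rose there, where 7.11% of all genes tested were called as higher. In the hippocampus the meninges and fibroblast list had a median sum of 109.1 CPM in controls (69.6 to 341.1) and 247.4 in cKO-/- mice (126.5 to 447.9). Lum of that list and the astrocyte marker Aqp4 rose in the hippocampus (edgeR adjusted p = 0.0321 and 0.00388). The hippocampal neuron markers Wfs1, C1ql2, Dsp and Bhlhe22 fell in the hippocampus, 4 of 12 in that list. Of all genes tested in the hippocampus, 2.09% were called as higher and 2.35% as lower. Choroid plexus markers summed to 33.9 to 5007 CPM in control and 28.5 to 5173 in cKO-/- hippocampi, with no marker called. In the cerebellum they summed to 19.4 to 28.1 CPM in controls, 21.3 to 3227 in cKO+/- and 22 to 3101 in cKO-/- mice, and the high libraries were Sample_933 at 2411, Sample_1433 at 3227 and Sample_936 at 3101 CPM. Without these 3 cerebella the same 5 members were called in that tissue, at 1.15 for Rnf17, 1.59 for 4930447C04Rik, 0.50 for Ddx4, 0.36 for Sycp1 and -0.26 for Syce2 (edgeR adjusted p from 4.13e-05 to 0.0353). In bulk tissue, more cells of a type and more RNA per cell cannot be told apart, and the part of cell type makeup in the members' changes was otherwise not tested.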

How the data were processed

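Poly(A) RNA of the cerebellum and hippocampus of the same 18 mice was sequenced, and the authors aligned reads and counted them per gene with STAR (version 250a in the submitters' processing notes). The authors deposited raw counts, 1 table per tissue, with no scaling. The notes and methods name mm9, whereas gene coordinates in the tables match GRCm38, which is used here. How strand and reads with several matches were treated is not given in the sources used here, so counts of overlapping genes or close paralogs are uncertain.

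Groups came from the labels. The animals are separate mice. Genes above 1 CPM in at least 6 of the 18 libraries of a tissue were tested with the quasi-likelihood F-test of edgeR 4.0.16 (earlier form, R 4.3.3) on TMM-scaled counts, with terms for sex and for alleles lost (0, 1 or 2), Benjamini-Hochberg adjustment over all genes tested and an FDR of 0.05; "called" means past it. The hippocampal filter and TMM factors used all 18 libraries and the fit 17. Tissue and sex differences were interaction terms. Single levels were compared by 2-sided exact permutation tests, unadjusted. Alternatives were DESeq2 1.42.0, other size factors, no filter, the bias-adjusted fit, no sex term, genotype as a factor, all 18 hippocampal libraries, a term for animal numbers outside 1120 to 1219, the animal as a block, and each library left out. Fits without Sample_1129, without Sample_1385 and Sample_1433, or without Sample_933, Sample_936 and Sample_1433, were chosen after seeing the data. The animal number in the labels pairs the tissues. Over 17 animals, the correlation between an animal's hippocampal and cerebellar deviations from the group means lay between -0.159 and 0.430 with a median of 0.194, and 14 exceeded 0.1.

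Members, lists and tests were chosen with earlier results of these data known. Named with values are members called in either tissue, those with a mean of at least 1 CPM in a tissue, and those whose cKO-/- values all lie above or all lie below the controls. Slc25a31 and Syce1 were named after the fit without the filter, and Mael and the sex split of single genes after their values were seen. Counts of at most 3 were taken as the floor, which covers counting error only. The edgeR script was tested on simulated data. A result among the somatic counterparts is not reported here.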

Additional observations from a re-analysis of the deposited data

Results flagged for a closer look

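Groups of 5 or 6 libraries in which the highest or lowest library stood far from the rest were searched for over 102 groups of members at 1 CPM or without overlap, and 11 were found; chance gives about 1 in 20. In the hippocampus these were 4930447C04Rik in the cKO-/- Sample_1371 (37.5 CPM, the others 25.7 to 28.9), Dmc1, the meiotic recombinase, in the cKO+/- Sample_1120 (2.21, the others 1.18 to 1.52) and Tex15 in the control Sample_1172 (4.97, the others 1.28 to 1.54). In the cerebellum, Sample_1371 was the high library of the cKO-/- group for Ddx4 (5.44, the others 1.80 to 2.95), Sycp2 (3.82, the others 1.84 to 2.46) and Sycp3 (19.5, the others 10.4 to 12.5). Sample_1433 was the high cKO+/- library for 4930447C04Rik (5.11, the others 0.28 to 1.22) and Tdrd5 (2.05, the others 0.747 to 1.01). Among cerebellar controls, Tdrd5 was high in Sample_1172 (1.84, the others 0.642 to 1.07), Tdrd6 was high in Sample_1129 (2.80, the others 0.992 to 1.31) and Tdrkh was low in Sample_1190 (37.0, the others 45.1 to 49.4).

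The allele effect of Sycp1 differed between the tissues by 4.08 on the log2 scale, a test that rests on the hippocampal control library of Sample_1129.

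The hippocampus of Sample_1160, a cKO-/- female left out of the fit, held Rnf17 at 2.62 CPM and 4930447C04Rik at 33.8 CPM, above every control hippocampus (at most 0.943 and 9.64). By the rule used, only values above every control could be listed for this library. Its marker levels were unusual, with Prox1 at 10.1 CPM (other hippocampi 38.6 to 109.6) and Spink8 at 81.9 CPM (others 15.6 to 24.4). Its astrocyte marker sum of 2629 CPM was the lowest of the 18 hippocampal libraries.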

How the results depend on the processing

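Rnf17 and 4930447C04Rik kept their direction and their call in both tissues under every alternative run for the allele effect. In the hippocampus 2 members were called; without the filter on low counts there were 4, and leaving out 1 library gave 2 to 3. The third was Tex15 without Sample_1172 (edgeR adjusted p = 0.00218), Brdt without Sample_1219 (edgeR adjusted p = 0.0476), or Ddx4 without Sample_1385 (edgeR adjusted p = 0.0378). DESeq2 added Brdt (adjusted p = 0.0390). In the cerebellum 5 were called, 8 without the filter, 2 with the term for the range of animal numbers and 5 to 6 with 1 library left out. The sixth was Rec8 without Sample_1433 (edgeR adjusted p = 0.0489), otherwise Tex14, without Sample_1129, Sample_1160, Sample_1219 or Sample_1379 (edgeR adjusted p as low as 0.0144). In the tissue difference 1 member was called, and 0 without the filter, 0 with the term for animal numbers, 0 without the hippocampus of Sample_1129 and 0 to 2 with 1 animal left out. Sycp1 was called there in 6 of 18 such fits. The animal as replicate block left 1 member called in the tissue difference (Tex15 at 0.72 in place of Sycp1 at 3.74, edgeR adjusted p = 0.214) and 12 between control tissues, as without it. Between control tissues, no filter gave 23 members, where 58.5% of all 20616 genes fitted were called. Leaving out 1 animal gave 10 to 11, with Stag3 or Tdrd7 lost, and DESeq2 gave 11, with no adjusted p for Sycp1. The sex difference gave 0 to 0. No result reversed. Low counts limit what can be seen: decreases of members near the floor could not be detected at this depth.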

Other observations

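The following values of single animals were chosen after they were seen and were not tested. Rec8 had its lowest cerebellar counts in Sample_1385 (162, cKO-/-) and Sample_1433 (344, cKO+/-), and the hippocampi of these animals held 5 and 8 counts. The control Sample_1172, with 615 cerebellar counts, the lowest of the controls, held 7 in the hippocampus, where the other controls held 47 to 136.

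Mael, a protein of germ granules, had 17 to 24 counts in the 3 cKO-/- male hippocampi and 0 in the 2 females of the fit, with 2 in Sample_1160. In the cerebellum the 3 cKO-/- males had 8 to 22 counts and the 3 females 1 to 3. Syce1 had 19 to 27 counts in the cKO-/- male cerebella and 3 to 12 in the females. The sex by allele term did not pass the test for either gene (0 genes called by edgeR without the filter; 4 of 40 hippocampal and 2 of 38 cerebellar members at an unadjusted p under 0.05, against 4.96% and 3.55% of all genes).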
